A study of Drosophila melanogaster with 2 samples.

Results

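The peaks described here are the 253 places where Twist fused to GFP was mapped to an annotated exon at a distance from any annotated transcription start. They were chosen from 6516 peaks by position alone. The summit, which is the base of highest signal within a peak, had to lie more than 500 bp from every annotated start and inside an exon of any gene. They made up 3.88% of the list. Of the 253 summits, 80 lay in coding exons, 43 in 5′ untranslated regions, 51 in 3′ untranslated regions and 79 in exons of non-coding RNA genes. The other 6263 summits comprised 2574 at promoters, 2489 in introns and 1200 between genes.

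Chromatin immunoprecipitation followed by sequencing was done on whole Drosophila melanogaster embryos of 2 to 12 h, with both sexes pooled, from a transgenic line that stably expresses twi with GFP at its C-terminus. The precipitation used an antibody against GFP. There was 1 group of 2 biological replicates, so no genotype, treatment or stage could be compared, and the labels name no second line. The 6516 peaks are those that the authors kept after thresholding on the irreproducible discovery rate (IDR), a measure of how well peak ranks agree between replicates. The tagged protein is read in all cells of the embryo together, so the peaks do not tell in which cells it was bound, and the width of the age range does not tell when. Peak lists hold no read counts and the depth of each library is unknown. Intervals given below are 95% Wilson intervals and cover the counting of peaks only.

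Twist is a basic helix-loop-helix transcription factor at the head of the programme that forms the mesoderm of the fly embryo. It binds as a dimer to E-boxes, which have the form CANNTG, and in Drosophila the forms CATATG and CACATG are the ones most often tied to it. Enhancers of the fly genome lie mostly in introns and between genes, but an enhancer can also overlap an exon, in which case the same bases are read as transcript and bound as DNA.

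The sequences below show what these exons offered to the factor at the summits. For each class they are the 3 highest-signal peaks, among those that may be printed here, with either form no more than 50 bp from the summit. Each is 30 bases of the plus strand of the RefSeq Release 6 genome (dm6), with the E-box in capitals, and CATGTG is CACATG read on the other strand. The first 3 lie in coding exons of pzg, which encodes a zinc finger protein of chromatin complexes, of zld, which encodes the pioneer factor Zelda that opens the early zygotic genome, and of CG11155.
pzg (chr3L:21287421-21287450): agcctgcgcaagCACATGgagacgaatcac
zld (chrX:19778033-19778062): acagatgtcgcaCATGTGctgcttcagccc
CG11155 (chr4:1127228-1127257): tcatgtacaatcCATATGcgaagcatatga
The next 3 lie in 5′ untranslated regions of Cdep, of the overlapping genes CG42637 and Gyc76C (a receptor guanylyl cyclase), and of CadN, which encodes N-cadherin.
Cdep (chr3R:4917575-4917604): gcaaatgtgaaaCATATGtgcgagctggag
CG42637 and Gyc76C (chr3L:19791507-19791536): gctgcggatcaaCATGTGtgtgctgtaaga
CadN (chr2L:17777597-17777626): cattattagaaaCACATGcaacgcactttt
These lie in 3′ untranslated regions of scf, CG8419 and CG9837, and all 3 hold CATATG.
scf (chr3L:1300148-1300177): ttgcctgtgtaaCATATGtataaacataaa
CG8419 (chr2L:8209544-8209573): tctccttattacCATATGgtcagcatatgc
CG9837 (chr3R:8808343-8808372): cccacttaactgCATATGgtttttgttagt
The last 3 lie in exons of long non-coding RNAs, among them bxd, which is transcribed from the regulatory region of the Hox gene Ubx.
lncRNA:CR43252 (chr3R:6903712-6903741): ttgaaacagaaaCATGTGgctgacattgac
lncRNA:bxd (chr3R:16744431-16744460): cttcactgacaaCATGTGtggggtgtctgc
lncRNA:CR44842 (chr3L:1462013-1462042): gcatatgttgagCACATGttttgggggaaa
The middle of the printed E-box lay 1.5 bp from the summit in zld, 3.5 bp in CG8419 and 4.5 bp in lncRNA:CR44842. It lay 43.5 to 45.5 bp away in lncRNA:CR43252, lncRNA:bxd and CG11155. The windows of CG8419 and lncRNA:CR44842 held a further copy, seen as the lower-case catatg, while that of CG11155 lies just outside its window.

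Exons were not an even target. Coding sequence more than 500 bp from a start amounts to 18660 kb and held 4.29 summits per Mb. The 3′ untranslated regions held 8.60 per Mb over 5931 kb. Both were far below introns, with 46.3 per Mb, and intergenic sequence, with 30.8 per Mb. The 5′ untranslated regions held 53.1 per Mb over 810.5 kb and non-coding exons held 70.0 per Mb over 1129 kb. These values lie above that of introns and below that of promoters, with 141 per Mb. They rest on 43 and 79 summits and no interval was computed, so the order of 5′ untranslated regions and introns is not settled. Of these summits, 24 (55.8%) and 40 (50.6%) lay within 1000 bp of a start, and 25 (58.1%) and 33 (41.8%) also lay in an intron. Coding and 3′ sequence make up most of the 26530 kb of exons away from starts, and the density over all exons was 9.54 per Mb. Since the lists report peaks, these densities say nothing of binding too weak to be called, and how well each kind of sequence could be mapped was not measured.

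**Figure D1:**
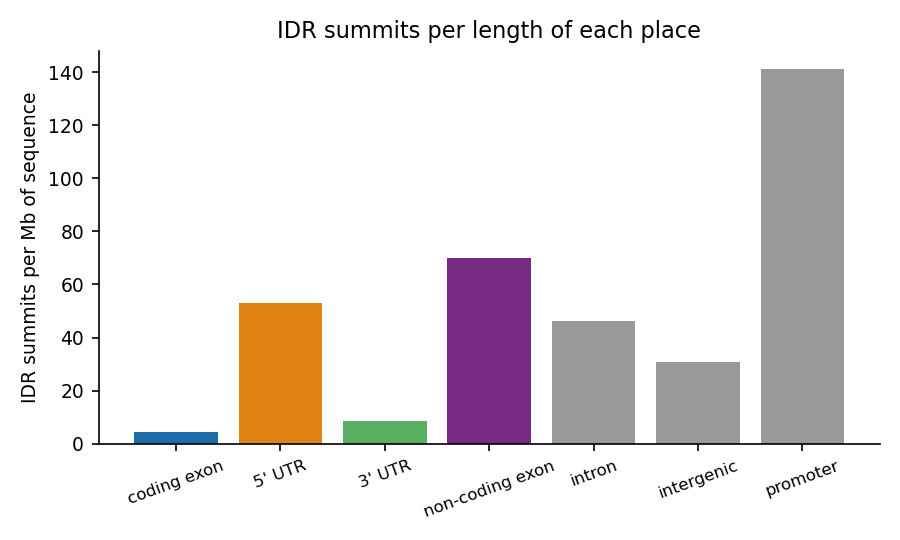
Number of IDR summits per Mb of annotated sequence (vertical axis) for each place (horizontal axis). Coding exons (4.29) and 3′ untranslated regions (8.60) stand lowest, while 5′ untranslated regions (53.1) and non-coding exons (70.0) stand above introns (46.3) and below promoters (141). No intervals are drawn, and the value for 5′ untranslated regions rests on 43 summits.

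The position of the summits was checked against the exon models. Of the 253 summits, 221 (87.4%) lay at least 50 bp inside the exon, and 177 (70%) lay in no intron of any transcript. The remaining 76 (30%) were exonic in 1 transcript and intronic in another, of the same gene in 41 cases and of another gene in 37, with 2 in both counts. The overlap was uneven between classes. An intron covered 8 of 80 coding summits (10%), 10 of 51 summits in 3′ untranslated regions (19.6%), 33 of 79 in non-coding exons (41.8%) and 25 of 43 in 5′ untranslated regions (58.1%). In 5′ untranslated regions 24 summits lay in an intron of another transcript of the host, and 18 (41.9%) lay in no intron at all. The exons were long, with a median of 1182 bp (22 to 21216 bp), and 152 summits (60.1%) lay in the last exon of their transcript.

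The median distance to the nearest start was 1317 bp and ranged from 502 to 21406 bp. It was 1550 bp for coding exons, 1581 bp for 3′ untranslated regions, 1000 bp for non-coding exons and 932 bp for 5′ untranslated regions. A distance of at most 1000 bp was found for 91 peaks (36%) and one above 5000 bp for 23 (9.09%). The nearest start belonged to the host gene for 176 peaks (69.6%), so for the rest another gene's start was closer than the host's. The peaks nearest to the limit on the outside were in fz (502 bp, rank 5872), lncRNA:CR44737 (507 bp, rank 3759), CG42637 with Gyc76C (513 bp, rank 1272), lncRNA:CR44667 (513 bp, rank 5089) and lncRNA:CR45899 (517 bp, rank 1794). Those just inside it, and so counted as promoter peaks, were in lncRNA:CR44619 (500 bp, rank 313), lncRNA:CR46196 (500 bp, rank 4403), CG15247 (499 bp, rank 5527), Nxf3 (497 bp, rank 5497) and lncRNA:CR44365 (491 bp, rank 5498). Of the promoter summits, 621 also lay in an exon.

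The peaks were spread over 225 host genes. There were 61 on 3R, 59 on 3L, 49 on 2R, 47 on 2L, 32 on X (12.6%) and 5 on the fourth chromosome. The host gene held no other IDR summit in 124 cases (49%), and had a promoter peak of its own in 90 (35.6%). The nearest other summit lay a median 2221 bp away, against 2366 bp over all IDR peaks, and 59 (23.3%) had one within 1000 bp. The 253 summits came from 249 intervals of 109 to 2312 bp (median 363 bp), and 20 lay within 250 bp of another exonic summit, so some are not separate places. That count leaves out close summits that are not exonic. The peaks in asRNA:CR46484 and RalGPS had such a summit 220 and 212 bp away. Of the 253, 21 shared their interval with another IDR summit of any place. None of the 253 lay in an annotated transposable element. Only 14 of all 6516 IDR summits did, so this absence says little.

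Both replicates held nearly all of these peaks. A summit within 100 bp was present in replicate 1 for 249 peaks, in replicate 2 for 245 and in both for 241, which is 95.3% (91.9 to 97.3%). Over all IDR peaks the share was 95.4%, which lies inside that interval. The count in both was 77 of 80 for coding exons, 42 of 43 for 5′ untranslated regions, 48 of 51 for 3′ untranslated regions and 74 of 79 for non-coding exons. The summits lay a median 10 bp from that of replicate 1 and 8 bp from that of replicate 2. The recovery is partly built in, because the IDR list was made from the replicate lists.

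The scale of the authors' signal value is not stated, so it served here for ranks alone, with rank 1 the highest. The median rank of the exonic peaks was 3540 of 6516, and 114 of the 253 (45.1%, 39.1 to 51.2%) were among ranks 1 to 3258. The best rank was 9 and the worst 6471, so the class spans the whole list. Median ranks were 3336 in non-coding exons, 3481 in coding exons, 3699 in 5′ untranslated regions and 4287 in 3′ untranslated regions. The median rank among the 30000 peaks of each replicate's own list was 3665 in replicate 1 and 3380 in replicate 2.

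**Figure D2:**
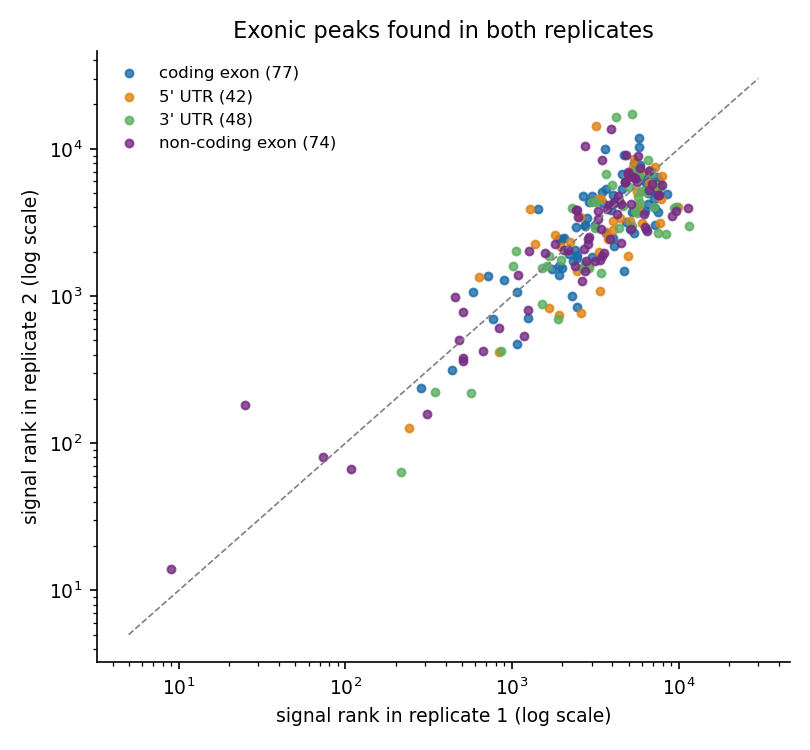
Signal rank in replicate 1 (horizontal, log scale) against replicate 2 (vertical, log scale) for the 241 exonic peaks with a summit within 100 bp in both, each point a peak coloured by class, with the line of equal rank dashed. The exonic peak ranked first on both axes was in lncRNA:CR9162, at rank 9 in replicate 1 and 14 in replicate 2, and the next on the replicate 2 axis was in the 3′ untranslated region of CG42807, at rank 64.

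Among coding exons the peak of highest signal was in CG8097 (chrX:15583707-15584401), at rank 251, with rank 284 in replicate 1 and 236 in replicate 2. CG10431 followed at rank 360 (436 and 316 in the replicates). Pde1c, a calmodulin-dependent phosphodiesterase gene, was at rank 732 (583 and 1062), and pzg at 735 (771 and 700). CG32037 was at rank 745 (1066 and 475) and otp, a homeobox gene of the nervous system, at rank 883 (714 and 1366). These 6 peaks lay 676 bp (CG32037) to 4664 bp (otp) from the nearest start. The peak in zld was the next, at rank 951 with ranks 1244 and 706, and lay 5094 bp from a start.

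In 5′ untranslated regions the first peak (chr2R:16784322-16785442) was in RalGPS, which encodes an exchange factor for Ral GTPases, at rank 160 (242 and 126). CAP, which encodes an adaptor protein at muscle attachment sites, had rank 592 (833 and 419), and Raf, the kinase below Ras, rank 820 (631 and 1344). Cdep had rank 1208 (1674 and 826) although its summit lay 7001 bp from the nearest start. CG42637 with Gyc76C had rank 1272 (1909 and 742) and CadN rank 1408 (2584 and 764). The replicates thus placed the same CadN peak more than 1000 ranks apart, while both kept it within the first 3258.

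In 3′ untranslated regions the first peak was in CG42807 (chr2R:13568984-13571295), at rank 115 (215 and 64). It was followed by scf, a gene for a calcium-binding protein, at rank 275 (346 and 221), CG8419 at 354 (569 and 218) and CG9837 at 612 (858 and 420). PAN3, a subunit of a poly(A) deadenylase, had rank 1144 (1508 and 877), and aqz rank 1161 (1891 and 695). All 6 ranked higher in replicate 2 than in replicate 1.

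Non-coding exons held the highest ranks of all 4 classes. lncRNA:CR9162 (chr2L:6078726-6079384) was at rank 9 of the whole list, 648 bp from its own start. lncRNA:Vinr was at rank 46 (25 and 183 in the replicates), and lncRNA:CR43252, which lies in introns of the Hox gene Antp, at rank 76 (73 and 80). asRNA:CR46484 lies in an intron of Six4, a homeobox gene of the mesoderm, and its peak was at rank 85 (108 and 67). lncRNA:bxd was at rank 227 (309 and 157) and lncRNA:CR43622 at 429 (509 and 362). In this class a summit often belonged to the body of another gene as well, and 27 of 79 (34.2%) lay in an intron of another gene.

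A few hosts held several peaks. lncRNA:CR43334, whose span holds the annotated microRNA gene mir-ban (bantam), had 4, at ranks 1218, 1501, 1935 and 6372. lncRNA:CR43654 also had 4, at ranks 1003, 4402, 5758 and 6276. asRNA:CR46471, inside an intron of the guidance ligand gene sli, had 3 (ranks 2054, 2262 and 6398). lncRNA:CR45700 had 3 (ranks 2628, 5536 and 5548), as did lncRNA:CR45973 (ranks 523, 2325 and 3712). The only protein-coding host with 3 was heph, which encodes the polypyrimidine tract-binding protein, with a summit in its 3′ untranslated region at rank 1627 and a pair in its 5′ untranslated region at ranks 4524 and 6147. Peaks of 1 host share a locus and are not independent of each other.

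Host genes were then read by role, with lists of genes of the mesoderm and of other parts of the embryo. The lists were chosen with earlier results of these data known, so their shares are a description and no independent support. Of all 13968 protein-coding genes, 163 (1.17%) had an exonic peak in an exon of their own. Of 16 early mesoderm genes, 5 did (31.2%), namely Mef2, fog, htl, sna and tin. Of 15 cardiac genes 2 did (Doc1 and tin, 13.3%), and of 26 somatic muscle genes 2 (how and lbl, 7.69%). The other lists with any were Hox genes and cofactors (2 of 11, Antp and hth), segmentation (2 of 23, ftz and hb), dorsal ectoderm (1 of 11, ush), hemocyte (1 of 11, again ush) and neural (1 of 16, CadN). Lists for visceral mesoderm (11 genes), muscle structure (24), neurogenic ectoderm (18), the Notch pathway (20), the Toll and Dorsal pathway (13), trachea (7), germline (9), ribosomal proteins (20), heat shock (16) and adult or testis genes (15) had none. At the 1.17% of all protein-coding genes, lists this short would often hold none, so these absences say little. The lists are not complete: exonic peaks also lay in genes outside them, of which these were picked after the peaks were seen. Myd88, the adaptor of Toll receptors, had a peak in its 3′ untranslated region at rank 3441, and numb, an inhibitor of Notch signalling, one in its 5′ untranslated region at rank 6248. The germline genes orb, cort and mei-P26 had peaks at ranks 2181, 3547 and 6439. Over all 18 lists 14 of 268 genes did (5.22%). Long genes offer more exonic sequence than short ones, and the part of gene length in these counts was not tested.

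The peaks in exons of early mesoderm genes had ranks from 1866 to 6041. tin, the homeobox gene of the dorsal mesoderm and heart, had a pair of peaks in its coding exons. The first (chr3R:21379805-21380612) was at rank 2412, with rank 2976 in replicate 1. The nearest replicate 2 summit lay 193 bp away, past the 100 bp allowed, at rank 148, and another IDR summit lay 214 bp away. The other (chr3R:21381682-21381890) was at rank 4113 (4021 and 4885) and held a Twist-type E-box. sna, the zinc finger repressor that Twist activates in the presumptive mesoderm, had a coding peak (chr2L:15477592-15477706) at rank 6041 (6255 and 6104), 649 bp from its start and without CATATG or CACATG in the window. Mef2, the muscle differentiation factor, had a peak in its 5′ untranslated region (chr2R:9942835-9943127) at rank 1866 (1274 and 3924), and htl, the FGF receptor of the migrating mesoderm, one (chr3R:18047998-18048470) at rank 2161 (2234 and 2318), with CATATG or CACATG in the window of htl and not in that of Mef2. fog, the secreted signal for apical constriction of the ventral furrow, had one in its 3′ untranslated region (chrX:22825035-22825249) at rank 4988 (5057 and 5534), with an E-box, although the nearest start was that of CG42346.

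Among the cardiac and muscle genes, the T-box gene Doc1 had a coding peak (chr3L:9043630-9044088) at rank 1509 (2454 and 847). The RNA-binding protein gene how and the homeobox gene lbl had peaks in their 3′ untranslated regions at ranks 5379 (5909 and 5189) and 4984 (5887 and 4309). None of these 3 windows held a Twist-type E-box. Of the patterning genes, the gap gene hb had a coding peak (chr3R:8691746-8692181) at rank 5865 (7323 and 5233) with 2 matches to such E-boxes, counted whether or not they overlap. The Hox cofactor gene hth had a coding peak at rank 4451 (5239 and 3702) with 1, and Antp a peak in its 3′ untranslated region at rank 4650 (8380 and 2626) with 1. The pair-rule gene ftz (3′ untranslated region, rank 2148) and ush, a cofactor of GATA factors (5′ untranslated region, rank 3726), had none. CadN had, beside the peak shown above, a coding peak at rank 6446 (7563 and 6029), 13158 bp from the nearest start and with an E-box.

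Many of the exonic summits had a Twist-type E-box beside them. CATATG or CACATG, sought on both strands within 50 bp, was present at 96 of 253 exonic summits (37.9%, 32.2 to 44.1%). The share over all IDR peaks was 28.2%, and it was 35.6% (33.7 to 37.5%) in introns, 33.6% between genes and 17.7% (16.3 to 19.2%) at promoters. The interval of the exonic peaks overlapped that of introns and lay above that of promoters. In windows of the same size 1000 bp to either side of the exonic summits the share was 8.10% (41 of 506 windows, 6.03 to 10.8%), and over all non-overlapping tiles of that size in exonic sequence away from starts it was 6.30%. The share at the summits was thus 6.03 times that of exonic sequence at large. The same ratio was 4.70 in introns, 4.81 between genes, 2.68 at promoters and 4.02 over all IDR peaks. Of the 96 peaks, 60 (62.5%) had the E-box within 25 bp, and the median distance was 18 bp. In 28 windows there were at least 2 matches, where matches that overlap, as in zld, were counted separately.

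**Figure D3:**
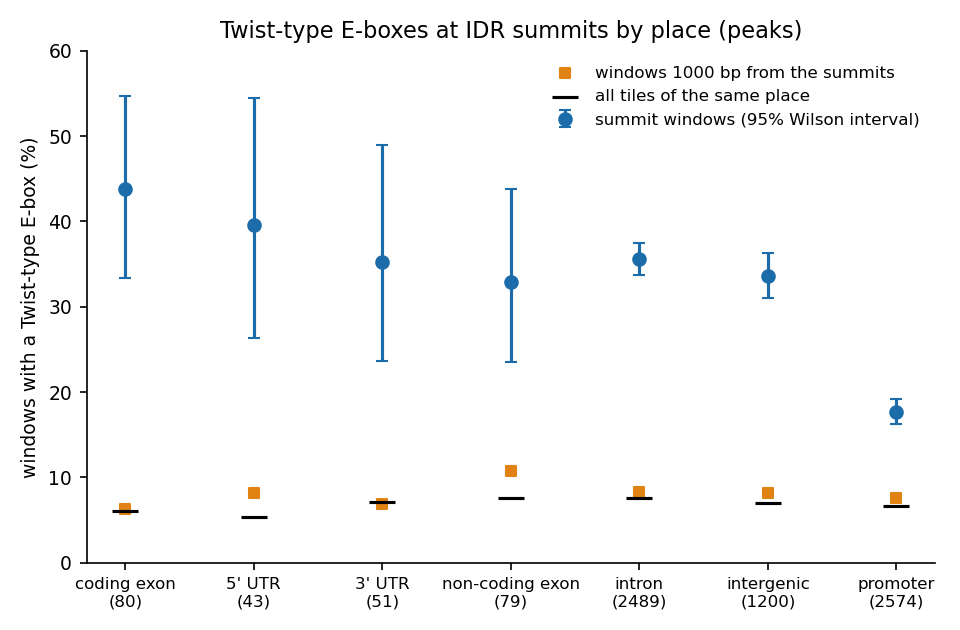
Share of windows (50 bp to either side) with CATATG or CACATG (vertical axis, %) at IDR summits of each place, with 95% Wilson intervals and the number of peaks in brackets. Squares show windows 1000 bp away and black bars all tiles of that place. All 4 exonic classes (32.9 to 43.8%) stand near introns (35.6%) and above promoters (17.7%).

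Each class showed the box above its own sequence background, as introns, intergenic sequence and promoters did. Coding exons had it at 35 of 80 summits (43.8%, 33.4 to 54.7%), against 6.02% of coding tiles. The 5′ untranslated regions had it at 17 of 43 (39.5%, 26.4 to 54.4%), against 5.32% of tiles, and 3′ untranslated regions at 18 of 51 (35.3%, 23.6 to 49.0%), against 7.07%. Non-coding exons had it at 26 of 79 (32.9%, 23.6 to 43.9%), against 7.58%. The 4 intervals overlap, so the order of the classes is not resolved. Whether the exon is also an intron did not shift all classes in 1 direction. The share was 35.6% in the 177 peaks in no intron and 43.4% in the other 76. In coding exons it was 40.3% of 72 in no intron against 75% of 8. In 3′ untranslated regions it was 31.7% of 41 against 50% of 10, and in non-coding exons 23.9% of 46 against 45.5% of 33. Only in 5′ untranslated regions was it lower in an intron, with 55.6% of 18 against 28% of 25.

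The value of this share was not the same in both replicates. Among the 6516 peaks of highest signal in each replicate's own list, 239 of replicate 1 and 265 of replicate 2 were exonic by the same rule. Of these, 32.6% (27.0 to 38.8%) and 43.0% (37.2 to 49.0%) held a Twist-type E-box. In coding exons the shares were 36.8% and 47.8%, in introns 33.8% and 36.4%, and at promoters 15.8% and 19.2%. Replicate 2 was the higher in all 4 comparisons, and each value for exons was above that for promoters in the same replicate. The intervals of the replicates overlapped for exons, coding exons and introns, and not for promoters. Coding peaks are also among the exonic ones, so these comparisons are not separate.

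Of the 10 forms of E-box, CATATG stood out most against the sequence. It was at 18.2% of exonic summits (13.9 to 23.4%), against 1.96% of exonic tiles, and in coding exons at 16.3%, against 1.40% of coding tiles. CACATG was more frequent in both, with 22.9% of exonic summits and, in coding exons, 31.3% against 4.69% of coding tiles. Other places held both forms too. CATATG was at 11.6% of all IDR summits and 15.3% of those in introns. CACATG was at 18.9% of all IDR summits, 23.9% of those in introns and 24.1% of those between genes.

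CAGATG, another E-box form, was looked at more closely after its values were seen. It was at 55 exonic summits (21.7%, 17.1 to 27.2%), against 9.82% (9.11 to 10.6%) of all other IDR summits and 6.17% of exonic tiles. Coding exons had it at 26 of 80 (32.5%, 23.2 to 43.4%), against 7.26% of coding tiles, and 3′ untranslated regions at 21.6%, against 3.37%. It was at 16.3% of summits in 5′ untranslated regions, against 3.54% of tiles, at 13.9% in non-coding exons, against 4.74%, and at 11.6% in introns, against 4.09%. The ratio to tiles was 6.402 in 3′ untranslated regions, 4.60 in 5′ untranslated regions, 4.48 in coding exons, 2.94 in non-coding exons and 2.83 in introns. The coding interval did not overlap that of introns, which was 10.4 to 12.9%. The replicates' own lists had it at 35.5% of coding peaks in replicate 1 and 28.3% in replicate 2, against 9.11% and 10.2% of non-exonic peaks. The 3 coding peaks of highest signal each held it, in the form CATCTG of the plus strand, and they are printed for that reason.
CG8097 (chrX:15584052-15584081): ccagaaggacacCATCTGtgtgactgtcga
CG10431 (chr2L:18976939-18976968): acacaagtgcggCATCTGtgagcgggtctt
Pde1c (chr2L:11816560-11816589): aggccgcagcgcCATCTGccggctccgcag
The middle of the box lay 1.5 bp from the summit in CG8097, 4.5 bp in CG10431 and 22.5 bp in Pde1c. With CAGATG counted together with both Twist-type forms, 131 exonic summits (51.8%) held at least 1, against 12.1% of exonic tiles, 43.9% of introns and 23.8% of promoters. In coding exons it was 50 of 80 (62.5%).

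Other forms were rarer. CACGTG was at 8 of 80 coding summits (10%, 5.16 to 18.5%), against 1.52% of coding tiles, and at 2 of the 173 peaks of the other classes together. Over all IDR peaks it was at 2.87%, against 1.16% of all tiles. CAGGTG, which is also the core bound by Snail and by Zeb-type zinc fingers, was at 15 exonic summits (5.93%, 3.63 to 9.55%), no more than the 6.46% of exonic tiles, though other IDR summits had it at 2.60%. CAGCTG was at 10.3% of exonic summits, against 6.15% of exonic tiles, and at 6.90% of other summits. Its ratio to tiles was 1.67 for exonic peaks and 1.67 for all IDR peaks, so it was no more raised over the sequence in exons. These forms were singled out after their values were seen.

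Coding sequence has a reading frame and a base composition of its own. In the sense direction of the gene, CACATG in coding windows began at the first base of a codon in 15 of 19 cases (78.9%), where 67.2% of the 4749 copies in all coding sequence away from starts did. CAGATG did so in 9 of 15 (60%), against 60.1%. The other forms lay lower than coding sequence at large. CATGTG did so in 4 of 13 (30.8%), against 54.8%. CATATG did so in 4 of 12 (33.3%), against 38.2%, and CATCTG in 6 of 15 (40%), against 44.8%. The counts are small and no difference in frame can be read from them. The windows at coding summits had a median GC content of 55.5%, against a mean of 52.6% for coding tiles. In the GC values that follow, too, summits are given as medians and tiles as means. In 3′ untranslated regions it was 42.6% against 35.4%, in 5′ untranslated regions 44.6% against 42.9% and in non-coding exons 44.6% against 42.0%. Intron summits (42.6% against 39.96%) and intergenic summits (44.6% against 40.7%) also lay above their own sequence, and promoter summits (36.6% against 42.6%) lay below. The part of base composition in the E-box shares was not tested. A run of CAG triplets of at least 12 bases, which codes for repeats in many fly proteins, was in 5 exonic windows (1.98%). Over all 6516 IDR peaks it was in 26 (0.399%). The 4 in coding exons (5% of 80) were in psq, BuGZ, Fmr1 and tin. How often coding sequence at large holds such a run was not counted.

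Exonic peaks grew more frequent and poorer in E-boxes down the list. The authors' pooled list of 30000 peaks, called on both replicates together, was ordered by signal. Up to rank 6516 its counts of exonic peaks, and of those with a Twist-type E-box, equalled those of the IDR list. Ranks 1 to 6516 are therefore not separate evidence from the 253 peaks described above. Exonic summits were 3.50% of ranks 1 to 3258, 4.27% of ranks 3259 to 6516, 4.87% of ranks 6517 to 12000, 6.68% of ranks 12001 to 18000, 10.1% of ranks 18001 to 24000 and 13.2% of ranks 24001 to 30000. The share of those summits with a Twist-type E-box was 43.0%, 33.8%, 25.5%, 20.7%, 15.1% and 10.2% in the same bins. The last value is still above the 6.30% of exonic tiles. Coding exons alone went from 1.17% of the first bin to 8.43% of the last, and promoters from 38.9% to 18.1%. The exonic class thus depends on how deep into a list peaks are taken.

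**Figure D4:**
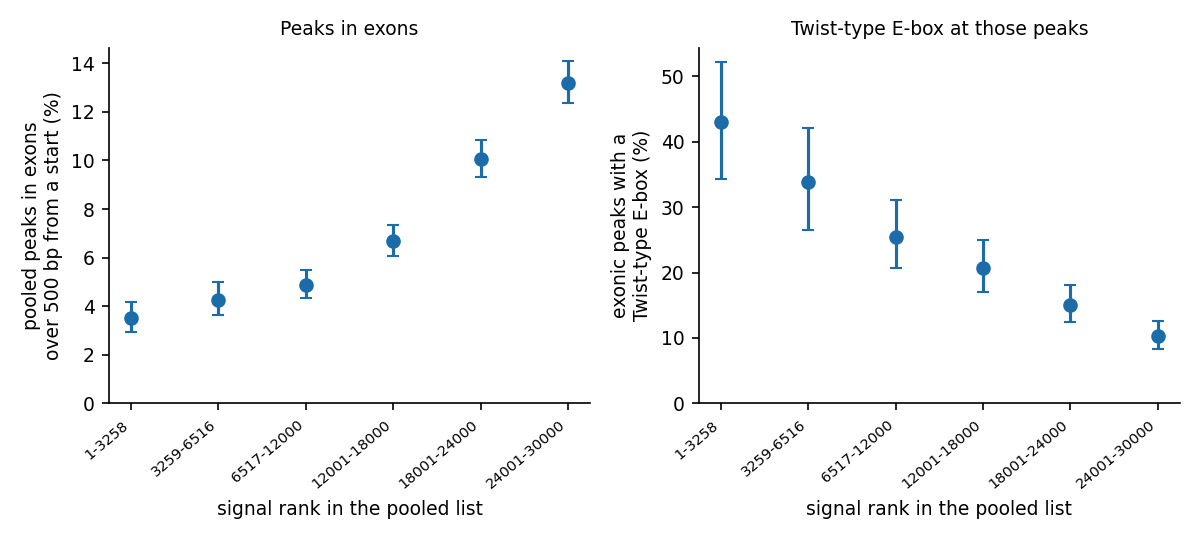
Left, share of pooled-list peaks in exons more than 500 bp from a start (vertical axis, %) in bins of signal rank (horizontal axis). Right, share of those exonic peaks with CATATG or CACATG (%), both with 95% Wilson intervals. The exonic share went from 3.50% to 13.2% down the list while the E-box share went from 43.0% to 10.2%. Up to rank 6516 the counts equal those of the IDR list.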

How the data were processed

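Peak lists were used as the authors deposited them, in dm6 coordinates per the labels. Per the records deposited with the files, both replicate lists had 1 control in common, the pooled list came from the alignments of both, and these 3 lists gave the IDR list (6516 peaks). The replicate and pooled lists hold 30000 peaks each. Which aligner and which peak caller were used is not given in the sources used here. Each peak's signal value that the authors deposited is a score of unstated scale and served only for ranks. The labels put fragment sizes at 200 to 800 without a unit.

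Summits were placed in the order promoter (within 500 bp of a start), coding exon, 5′ untranslated region, 3′ untranslated region, non-coding exon, intron and intergenic, by Ensembl release 115 on the Release 6 assembly, with transposable elements left out (18277 genes). Peaks on all 7 chromosomes ended within the chromosome's length. E-boxes were sought within 50 bp of a summit on both strands of the RefSeq genome. Peaks are not replicates and there was 1 group, so no test was made. Alternatives changed the start distance, the windows, the matching, the annotation and the replicates used. The text names hosts of the 6 highest-signal peaks per class, hosts with at least 3 peaks, list genes with a peak and the 5 peaks on each side of the limit. Also named are hosts of printed sequences, hosts of coding windows with a CAG run and genes outside the lists that were picked after the peaks were seen. The members and the 18 gene lists (298 entries, of which 8 were not matched) were chosen with earlier results of these data known. Placement was tested on simulated data, with 10 of 10 places and 602 of 602 planted E-boxes found. The work ran in Python 3.11.15 with matplotlib 3.10.9, pandas 2.3.3, scipy 1.17.1 and numpy 2.4.6.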

Additional observations from a re-analysis of the deposited data

How the results depend on the processing

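Of 79 alternative values for the counts, shares and medians, 52 stayed within bounds and 27 did not. The bounds were the 95% interval for a share, the SD between the values from each replicate alone for a median, and 1.5 times for a count. With starts avoided by 1000 bp, 162 exonic peaks were left, 19 of them in 5′ untranslated regions and 39 in non-coding exons, and the median start distance was 1823 bp. With starts avoided by 250 bp there were 80 in 5′ untranslated regions and 139 in non-coding exons, and the median distance was 843 bp. With summits in introns left out, 18 and 46 were left in these classes and the median distance was 1381 bp. With coding genes only, non-coding exons fell to 0 and the median distance was 1486 bp. Ranks 1 to 3258 alone held 114 exonic peaks (38 coding, 19 in 5′ and 19 in 3′ untranslated regions, 38 in non-coding exons), with a median rank of 1888. The share found in both replicates was 83.8% when summits had to lie within 50 bp and 98.4% when intervals had only to overlap. Leaving out 1 replicate, and taking the 6516 highest peaks of the other, gave 91.2 to 91.3% with a summit in both (replicate 2 left out is the lower) and a median start distance of 1317 to 1375 bp. Windows of 25 bp to either side had a Twist-type E-box at 23.3% of summits and 4.74% of flanks, and windows of 100 bp at 47.4% and 14.03%. No paired analysis was possible because there was 1 group and no result came from a test. Depth is unknown, so peaks missed for want of reads cannot be counted.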
